A study of Mus musculus with 18 samples.

Results

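The nuclear receptor family was followed across fat depots of obese mice. Its 46 member genes were taken by symbol from the deposited expression tables, which list 52093 symbols, and where a symbol had several rows the row with the highest mean level was used. The 18 RNA-seq libraries came from male wild-type C57BL/6 mice (C57BL/6NTac in the study's notes) that were 16 weeks old and had been kept on high-fat food (HFD) through 12 weeks. There were 6 libraries of mature adipocytes from inguinal white fat (iWAT, a subcutaneous depot), 6 of mature adipocytes from epididymal white fat (eWAT, a visceral depot) and 6 of brown adipose tissue (BAT). No library of a chow-fed mouse was used, so the values describe depots of HFD mice and not an effect of the diet. Samples are named by the tissue and the number in their title, for example iWAT sample 5 or BAT sample 2. The white adipocytes were freed with collagenase at body temperature and taken from the floating layer, whereas BAT was frozen as whole tissue, which also holds vessels, nerves and other cells. The white libraries ran on sequencing lanes 1 and 2 and the BAT libraries on lanes 3 and 4, so in any comparison with BAT the depot, the preparation and the lane cannot be told apart.

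Nuclear receptors are transcription factors that bind DNA directly, and many of them change their activity when a small fat-soluble ligand such as a steroid, a thyroid hormone, a retinoid or a fatty acid enters a pocket in the protein. Without ligand many of them recruit corepressors, and with ligand they exchange these for coactivators. Several members act as heterodimers with a retinoid X receptor, others act as homodimers or alone, and the orphan members have no established natural ligand. In fat, PPARγ drives adipocyte formation and lipid storage, and members of the estrogen-related and thyroid hormone receptor groups are known for their part in the oxidative programme of brown fat.

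Levels are given in RPKM, the deposited read count divided by transcript length and library depth, and as the lowest, the median and the highest of the 6 samples of a tissue unless a mean ± SD is given (n = 6 in each tissue). Differences between tissues are log2 fold changes of the read counts with their standard error (SE), the first-named tissue over the second, from edgeR's quasi-likelihood test with TMM scaling, and a difference is called where the adjusted p over all genes tested is under 0.05. The reads on the table's rows numbered 26768529 to 30166441 per iWAT library, 24655056 to 37438994 per eWAT library and 27402247 to 42518483 per BAT library. TMM scaling matters for BAT. Without it, the median over all genes shifted by 0.85 log2 units in iWAT against BAT and by 0.91 in eWAT against BAT, and by -0.08 between the white depots, so RPKM levels of white fat and BAT are not on the scale of the differences.

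The labelled tissues carried their markers. All 6 brown adipocyte markers were called higher in BAT against each white depot, with a summed level of 2703 to 3912 RPKM in BAT, 29.7 to 45.9 in iWAT and 4.80 to 15.8 in eWAT. All 6 adipocyte markers were higher in iWAT than in eWAT, with sums of 2969 to 4407 and 623 to 2062 RPKM, and the BAT sums were 1098 to 1421. All 8 macrophage markers were higher in eWAT than in iWAT and higher in both than in BAT, with sums of 469 to 925 RPKM in iWAT, 2656 to 4261 in eWAT and 25.5 to 50.9 in BAT. The 6 endothelial markers were all higher in iWAT than in eWAT, with sums of 187 to 529 RPKM, 61.8 to 151 and, in BAT, 81.8 to 184. Markers of macrophages and vessels were thus measured in the floating layer of both white depots, and in bulk samples fewer cells of a type and less RNA per cell cannot be told apart. The part of these cells in the differences below, of receptors and of other genes, was not tested.

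Of the 46 receptors, 26 had a mean level of at least 1 RPKM in iWAT, 23 in eWAT and 26 in BAT. Together 21 reached it in all 3 tissues and 18 in none. The summed level of the family was 342 to 398 RPKM in iWAT, 246 to 320 in eWAT and 271 to 339 in BAT. Which receptors made up that sum differed between depots. Pparg, the adipocyte receptor for fatty acids and thiazolidinediones, supplied 24.9% ± 2.84 of it in iWAT, 14.6% ± 2.15 in eWAT and 28.3% ± 3.34 in BAT (mean ± SD). Nr4a1, an orphan receptor whose gene is switched on within minutes of a stimulus, supplied 15.5% ± 5.04 in iWAT, 29.5% ± 2.22 in eWAT and 2.71% ± 2.67 in BAT. Nr4a1 was first in eWAT, Pparg in iWAT and BAT, and the second place in BAT was held by Ppara, which was near 1 RPKM or below it in white adipocytes.

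**Figure D1:**
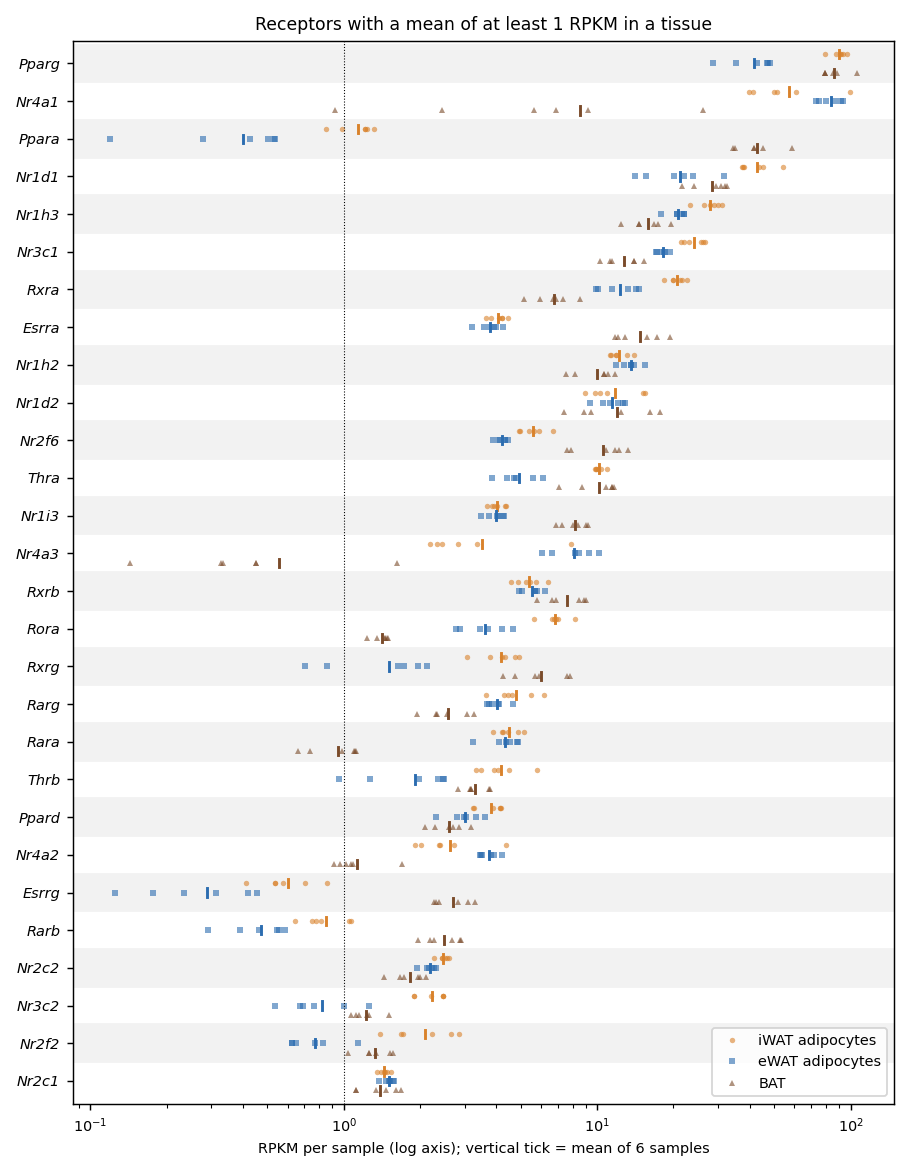
Level in RPKM (log axis) of each of the 28 receptors with a mean of at least 1 RPKM in a tissue; points are samples, 6 per tissue, and vertical ticks are means. Pparg, Nr1d1 and Nr1h3 are high in all 3 tissues, Ppara is high in BAT, and Nr4a1 is high in both white depots and spread widely in BAT.

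Between the white depots, receptor transcripts were mostly higher in iWAT adipocytes. The read counts of 33 of the 46 receptors were high enough to be tested (a mean of at least 10 reads over the 12 samples), and 24 were called, 21 of them higher in iWAT and 3 higher in eWAT. The 3 that were higher in eWAT were Nr4a1, Nr4a2 and Nr4a3, the whole NR4A group. Of all 19623 genes tested, 68.6% were called, 34.1% higher in iWAT and 34.5% higher in eWAT, so the share of receptors called is near that of all genes. The median log2 fold change was 0.42 over the 33 receptors and 0.00 over all genes tested. At a difference of at least 2-fold, 11 receptors were called, 10 higher in iWAT and 1, Nr4a3, higher in eWAT, beside 24.9% of all genes (13.0% and 11.9%). All 24 called differences had the same sign within lane 1 and within lane 2.

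Against BAT the receptors divided differently. In iWAT compared with BAT 35 receptors were tested and 29 called, 12 higher in iWAT and 17 higher in BAT, beside 75.3% of 19745 genes (38.1% and 37.2%). In eWAT compared with BAT 30 of 35 were called, 6 higher in eWAT and 24 higher in BAT, beside 82.5% of 20076 genes (41.1% and 41.4%). At 2-fold or more the counts were 6 and 11 in the first comparison, beside 37.3% of all genes (18.2% and 19.1%), and 4 and 18 in the second, beside 49.0% (23.7% and 25.3%). The median log2 fold change of the tested receptors was -0.28 in the first and -1.03 in the second, beside 0.01 and -0.02 over all genes. These splits rest on the scaling. Without TMM scaling the calls were 20 higher in iWAT and 9 higher in BAT in the first comparison and 14 and 14 in the second, and 6 called receptors changed sign in each (Thra, Pparg, Nr1d2, Nr1h2, Vdr and Nr2c1 in the first; Ppard, Nr1d2, Nr1h3, Nr2c1, Nr2c2 and Nr5a2 in the second). Over all genes the calls without scaling were 13701 higher in iWAT and 3054 higher in BAT of 19745 in the first comparison. In the second they were 12962 higher in eWAT and 4066 higher in BAT of 20076. No receptor called at 2-fold or more changed sign. Without scaling the calls of Rxrb and Rxrg in the first comparison and of Nr1d1, Rxrb, Nr2f1 and Nr3c2 in the second were lost with the sign unchanged, and calls were made for Thrb, Ppard, Nr1d1, Nr2c2 and Nr2f2 in the first and for Rarg, Nr1h2, Esr1 and Nr3c1 in the second. Between the white depots the calls of Rarg and Nr2c2 were lost and that of Nr1h2 was made. The comparisons share samples in pairs and are therefore given side by side. Esrrb and Rorb passed the count minimum through BAT alone, so once tested they could only lie on the BAT side. Both are included in the counts higher in BAT above, also at 2-fold, and in the medians. No counts without them were made.

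**Figure D2:**
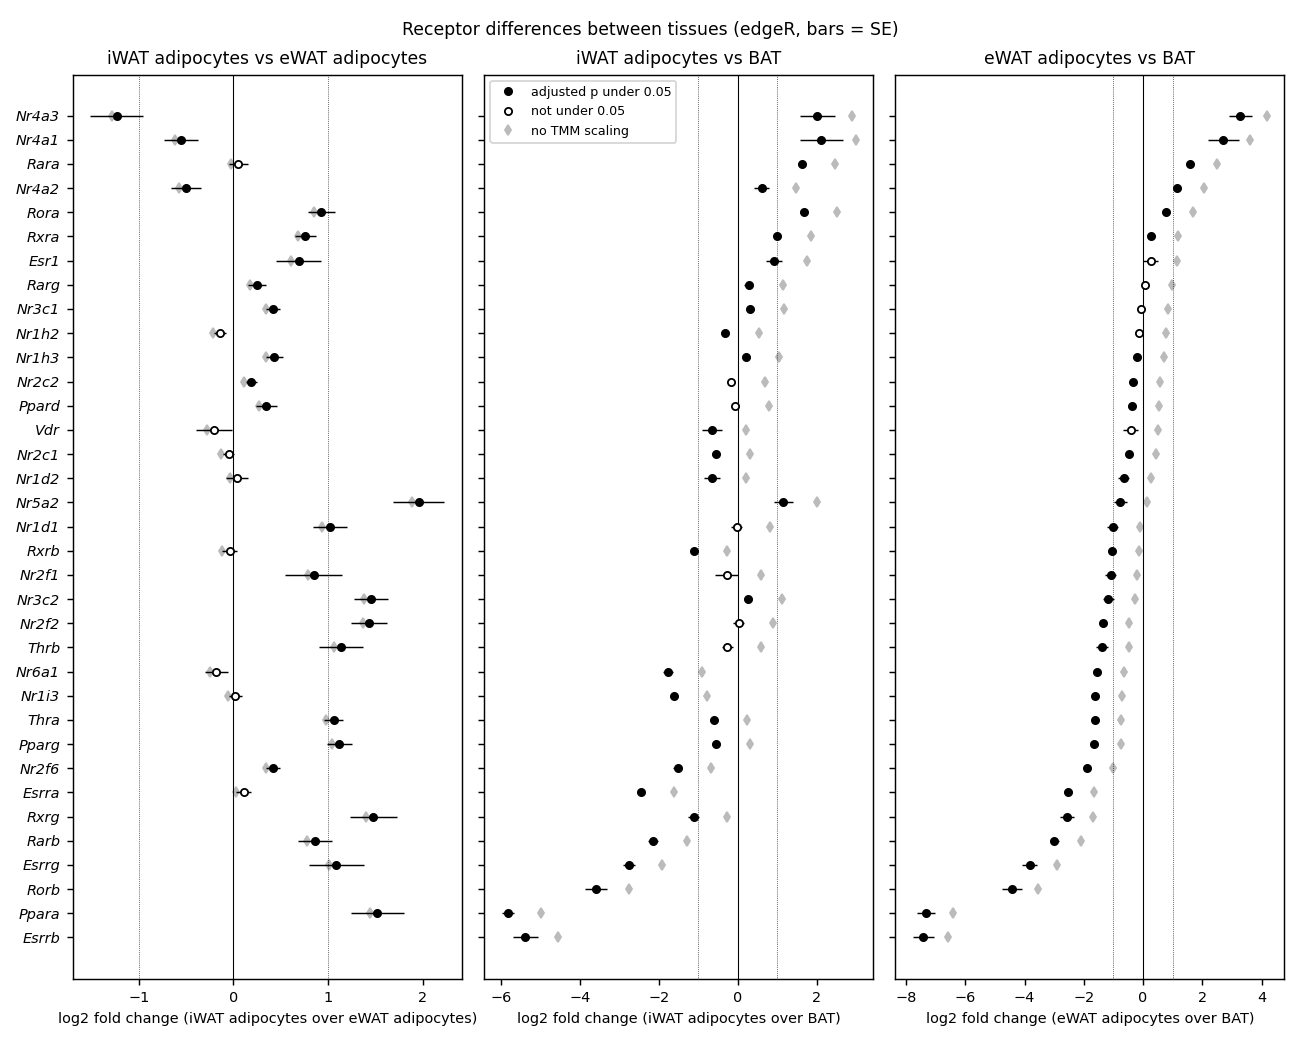
Log2 fold change of each tested receptor in the 3 comparisons, with SE bars; filled circles have an adjusted p under 0.05 in edgeR, open circles do not, grey diamonds give the value without TMM scaling and dotted lines mark 2-fold. Ppara and Esrrb lie farthest to the BAT side, Nr4a1, Nr4a3, Rara and Rora lie on the white side under either scaling, and receptors near 0 against BAT change side with the scaling.

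The PPARs, which sense fatty acids and their derivatives, differed between the depots in level and in make-up. Pparg (chr6:115311239-115440419, mm9, plus strand) was at 79.3, 91.1 and 96.7 RPKM in iWAT, 28.5, 44.7 and 48.2 in eWAT and 79.0, 82.2 and 106 in BAT. Every eWAT sample was below every iWAT and BAT sample, whereas iWAT and BAT overlapped in RPKM and not after TMM scaling. The count was 2.18-fold higher in iWAT than in eWAT (log2 fold change 1.12 ± 0.13 SE, adjusted p = 6.6e-06). Compared with BAT it was lower in eWAT (log2 fold change -1.65 ± 0.13 SE, adjusted p = 1.4e-08). In iWAT it was also lower than in BAT with TMM scaling (log2 fold change -0.55 ± 0.09 SE, adjusted p = 7.7e-05) and higher without it, at 0.31.

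Ppara (chr15:85565413-85637281, mm9, plus strand) drives fatty acid oxidation in tissues that burn fat. Its level was 0.855, 1.21 and 1.31 RPKM in iWAT, 0.120, 0.464 and 0.537 in eWAT and 34.3, 41.6 and 58.6 in BAT. No sample of one tissue overlapped those of another, and the lowest BAT sample stood far above the highest white sample. The difference was -5.83 ± 0.16 log2 units in iWAT against BAT (adjusted p = 2.6e-13, edgeR) and -7.33 ± 0.31 in eWAT against BAT (adjusted p = 8.3e-12). Within white fat it was higher in iWAT (log2 fold change 1.52 ± 0.28 SE, adjusted p = 0.00031). Ppard, the more widely expressed PPAR, had means of 3.80 ± 0.440 RPKM in iWAT, 3.01 ± 0.446 in eWAT and 2.61 ± 0.387 in BAT. The Ppard count was higher in iWAT than in eWAT by 0.35 log2 units (adjusted p = 0.012). With TMM scaling it was lower in eWAT than in BAT (log2 fold change -0.38 ± 0.10 SE, adjusted p = 0.0028), and higher without it (0.52). In iWAT against BAT the difference was -0.06 (adjusted p = 0.53) with scaling and 0.79 without it. As a share of the summed PPAR level, Pparg made up 94.8% ± 0.628 in iWAT, 92.3% ± 1.164 in eWAT and 65.6% ± 5.39 in BAT, and Ppara made up 1.20% ± 0.163, 0.853% ± 0.267 and 32.4% ± 5.33. The shares are taken within a sample and do not depend on the scaling.

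Every count of listed genes stands beside the 68.6% of all genes called between the white depots, 75.3% in iWAT against BAT and 82.5% in eWAT against BAT. Of 12 genes listed as targets of PPARγ, 10 were higher in iWAT than in eWAT, 1 was higher in eWAT and 1 was not called. The exception in direction was Cd36, a fatty acid transporter that macrophages also carry (log2 fold change -0.36 ± 0.11 SE, adjusted p = 0.011). The list shares genes with the adipocyte markers, Lipe among them, so its count is not independent of theirs. Cfd, the secreted factor adipsin, was at 541 ± 126 RPKM in iWAT and 137 ± 73.8 in eWAT (log2 fold change 1.99 ± 0.38 SE, adjusted p = 0.00047), and Pck1, which feeds glycerol synthesis, differed by a like size (log2 fold change 2.21 ± 0.27 SE, adjusted p = 1.4e-05). Against BAT the same list was divided, with 6 higher in iWAT and 5 higher in BAT (Aqp7 and Lipe changed sign without TMM scaling), and 3 higher in eWAT and 7 higher in BAT. Of 13 genes listed as targets of PPARα and PPARδ, 11 were higher in iWAT than in eWAT and 2 were not called. In that list 8 were higher in BAT than in iWAT and 3 lower, and 10 were higher in BAT than in eWAT (not all of them without TMM scaling) and 1 lower. Cpt1b, which carries fatty acids into mitochondria, was at 187 ± 23.1 RPKM in BAT against 2.91 ± 0.281 in iWAT and 0.966 ± 0.227 in eWAT.

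**Figure D3:**
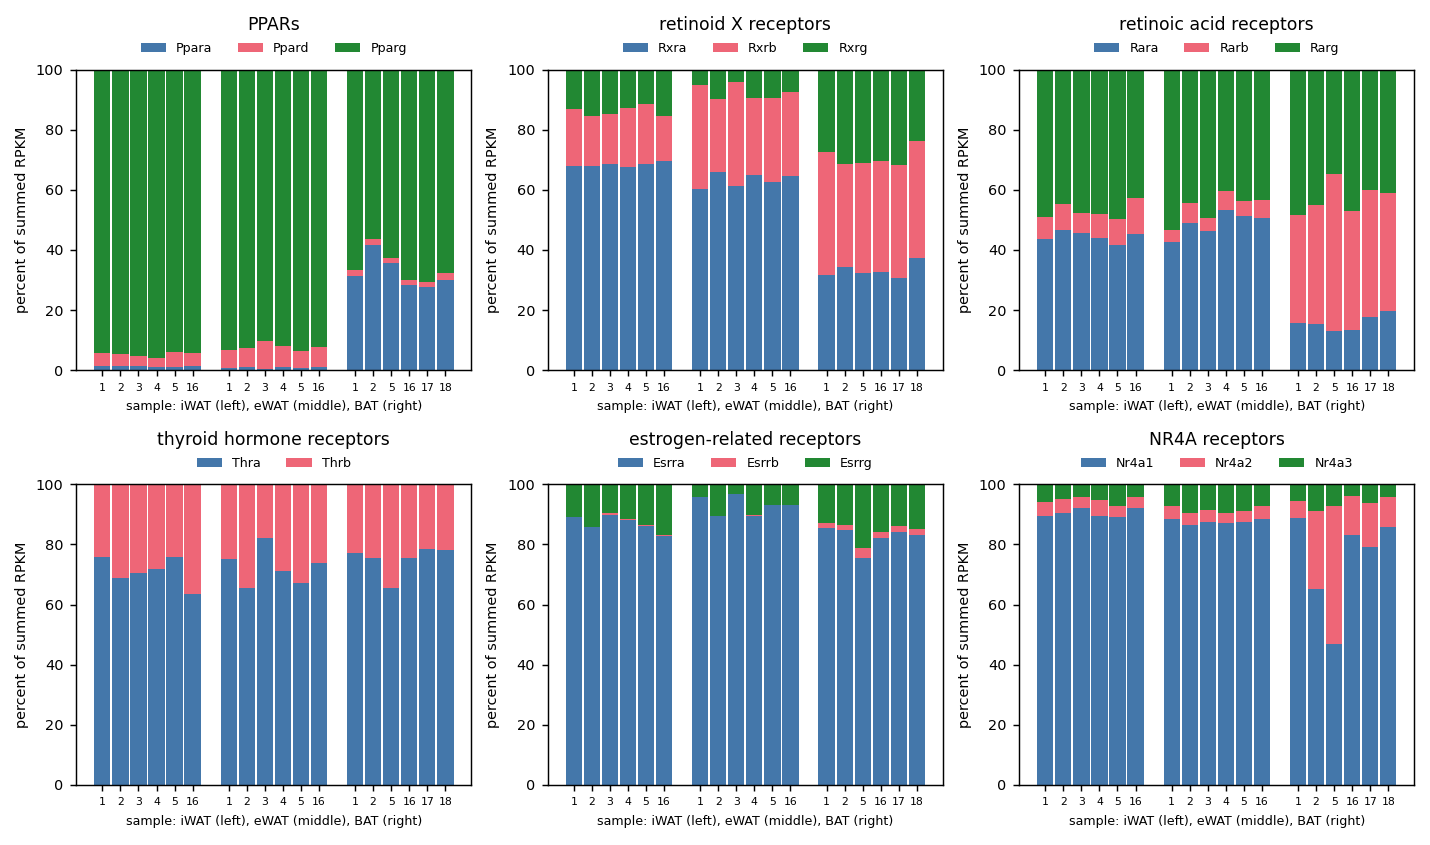
Share of each member in the summed RPKM of its receptor group, in percent, for 6 receptor groups; each bar is 1 sample, iWAT at the left, eWAT in the middle and BAT at the right of a panel. On average Ppara takes 32.4% ± 5.33 of the PPAR sum in BAT and 1.20% ± 0.163 of it in iWAT, and Rarb takes 41.5% ± 5.56 of the RAR sum in BAT and 8.51% ± 1.96 in iWAT (mean ± SD).

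The retinoid X receptors, the obligate partners of many other members, differed in make-up between white and brown fat. Rxra was the main form in white adipocytes, with 68.3% ± 0.666 of the RXR sum in iWAT and 63.3% ± 2.20 in eWAT, and held 33.3% ± 2.42 in BAT, where Rxrb held 37.4% ± 2.29 and Rxrg 29.3% ± 3.11. Rxra was higher in iWAT than in eWAT (log2 fold change 0.76 ± 0.11 SE, adjusted p = 6.1e-05) and higher in iWAT than in BAT (log2 fold change 1.01 ± 0.09 SE, adjusted p = 3.1e-08). Its difference between eWAT and BAT was small (log2 fold change 0.28 ± 0.11 SE, adjusted p = 0.028) and was lost in 8 of 12 cases when 1 library was left out. Rxrg (chr1:169528493-169569754, mm9, plus strand), the form with the most restricted distribution, was at 3.06, 4.28 and 4.91 RPKM in iWAT, 0.703, 1.69 and 2.14 in eWAT and 4.25, 5.80 and 7.83 in BAT. Its eWAT samples lay below all others, and the iWAT and BAT samples overlapped in RPKM. The count was higher in iWAT than in eWAT (log2 fold change 1.48 ± 0.25 SE, adjusted p = 0.00017) and higher in BAT than in eWAT (log2 fold change -2.58 ± 0.24 SE, adjusted p = 7.4e-08) and iWAT (log2 fold change -1.12 ± 0.15 SE, adjusted p = 4.7e-06), although without TMM scaling the latter was -0.28 (adjusted p = 0.11). Rxrb did not differ between the white depots beyond its error (log2 fold change -0.04 ± 0.08 SE, adjusted p = 0.68) and was higher in BAT than in either (-1.11 and -1.04 log2 units with adjusted p = 1.6e-08 and 1.9e-08), calls that ended without TMM scaling (-0.26 and -0.14, adjusted p = 0.073 and 0.31).

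The retinoic acid receptors differed in opposite directions between white and brown fat. Rarb (chr14:17263353-17651381, mm9, minus strand), whose own gene is a classical retinoic acid target, was at 0.640, 0.798 and 1.07 RPKM in iWAT, 0.290, 0.504 and 0.588 in eWAT and 1.97, 2.47 and 2.90 in BAT. The 3 tissues did not overlap. Rarb was higher in BAT than in iWAT (log2 fold change -2.15 ± 0.13 SE, adjusted p = 5.3e-10) and than in eWAT (log2 fold change -2.99 ± 0.16 SE, adjusted p = 8.3e-11), and higher in iWAT than in eWAT (log2 fold change 0.86 ± 0.18 SE, adjusted p = 0.001). Rara went the other way, with means of 4.47 ± 0.468 RPKM in iWAT, 4.32 ± 0.602 in eWAT and 0.9501 ± 0.205 in BAT, and was higher in both white depots than in BAT (1.62 and 1.59 log2 units; adjusted p = 8.9e-10 and 6.9e-09), with no difference beyond its error between iWAT and eWAT (log2 fold change 0.05 ± 0.10 SE, adjusted p = 0.63). Rarg held 47.0% ± 2.78 of the RAR sum in iWAT, 45.8% ± 4.79 in eWAT and 42.8% ± 5.07 in BAT. Its called differences were small (0.25 log2 units between the white depots and 0.28 in iWAT against BAT), and leaving out 1 library ended the call in 6 of 12 cases in the first comparison and in 8 of 12 in the second.

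Retinoids are made, carried and cleared by further listed genes. Of 9 such genes tested, 7 were higher in eWAT than in BAT and 2 lower, and 4 were higher in iWAT than in BAT and 3 lower, with Rdh10 among the lower ones in both cases and on the other side without TMM scaling, beside 82.5% and 75.3% of all genes called. Aldh1a1, which makes retinoic acid from retinaldehyde, was at 45.2 ± 4.30 RPKM in iWAT and 3.53 ± 0.529 in BAT (log2 fold change 3.08 ± 0.12 SE, adjusted p = 5e-12). Dhrs9, a retinol dehydrogenase, was higher in eWAT than in iWAT (log2 fold change -2.27 ± 0.17 SE, adjusted p = 3.4e-07). Rbp4, the plasma carrier of retinol, was higher in iWAT than in eWAT (log2 fold change 1.02 ± 0.34 SE, adjusted p = 0.018).

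The thyroid hormone receptors were lowest in eWAT. Thrb (chr14:18493474-18870602, mm9, plus strand) was at 3.31, 3.99 and 5.77 RPKM in iWAT, 0.960, 2.16 and 2.48 in eWAT and 2.82, 3.19 and 3.79 in BAT. The eWAT samples lay below those of the other 2 tissues, which overlapped. The Thrb count was higher in iWAT than in eWAT (log2 fold change 1.14 ± 0.23 SE, adjusted p = 0.0008) and higher in BAT than in eWAT (log2 fold change -1.38 ± 0.20 SE, adjusted p = 9.8e-06), and the difference between iWAT and BAT did not pass the threshold (log2 fold change -0.26 ± 0.13 SE, adjusted p = 0.085), although without iWAT sample 16 it was -0.40 (adjusted p = 0.0047), and without TMM scaling it was 0.58. Thra, the main form in all 3 tissues with 71.0% ± 4.61 to 75.1% ± 4.92 of the summed level, had means of 10.2 ± 0.442 RPKM in iWAT, 4.90 ± 0.820 in eWAT and 10.2 ± 1.88 in BAT. It was 2.08-fold higher in iWAT than in eWAT (log2 fold change 1.06 ± 0.10 SE, adjusted p = 1.5e-06). Against iWAT it was higher in BAT with TMM scaling (log2 fold change -0.61 ± 0.09 SE, adjusted p = 1.9e-05) and lower without it (0.24 in iWAT over BAT). Thra shares exon bases with Nr1d1 on the opposite strand (263 bases), and the table also carries a row named for both genes.

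Of 7 tested genes of thyroid hormone supply and response, 5 were higher in BAT than in iWAT (Klf9 and Me1 only with TMM scaling) and 5 higher in BAT than in eWAT. Dio2, the deiodinase that makes active T3 inside cells, was at 10.2 ± 3.33 RPKM in BAT and below 1 RPKM on average in both white depots (log2 fold change -4.26 ± 0.24 SE, adjusted p = 2.7e-10 in iWAT against BAT). Thrsp, a lipogenic thyroid hormone target, was at 544 ± 182 RPKM in BAT, 47.6 ± 11.3 in iWAT and 22.1 ± 10.2 in eWAT. Slc16a10, a T3 transporter, was higher in both white depots than in BAT and higher in eWAT than in iWAT (log2 fold change -0.80 ± 0.07 SE, adjusted p = 5.4e-07).

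Among the steroid hormone receptors listed, the one for glucocorticoids was abundant. Nr3c1, the glucocorticoid receptor, was at 21.3, 24.4 and 26.6 RPKM in iWAT, 17.02, 18.2 and 19.4 in eWAT and 10.3, 12.7 and 15.3 in BAT, and the tissues did not overlap in RPKM. The transcript was higher in iWAT than in eWAT (log2 fold change 0.42 ± 0.07 SE, adjusted p = 0.00011) and higher in iWAT than in BAT (log2 fold change 0.32 ± 0.09 SE, adjusted p = 0.0039), and in eWAT against BAT the difference did not pass the threshold with TMM scaling (log2 fold change -0.08 ± 0.09 SE, adjusted p = 0.41) and was 0.83 without it. Nr3c2 (chr8:79423341-79768911, mm9, plus strand), the mineralocorticoid receptor, was at 1.89, 2.33 and 2.46 RPKM in iWAT, 0.533, 0.725 and 1.26 in eWAT and 1.07, 1.19 and 1.503 in BAT. The iWAT samples were above all others in RPKM but overlapped those of BAT after TMM scaling. The Nr3c2 count was higher in iWAT than in eWAT (log2 fold change 1.45 ± 0.18 SE, adjusted p = 1.5e-05) and higher in BAT than in eWAT (log2 fold change -1.17 ± 0.18 SE, adjusted p = 1.8e-05), the latter being -0.26 (adjusted p = 0.17) without TMM scaling. The smaller difference between iWAT and BAT (log2 fold change 0.26 ± 0.10 SE, adjusted p = 0.037) was lost in 8 of 12 cases when 1 library was left out.

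Esr1, estrogen receptor alpha, had means of 0.902 ± 0.219 RPKM in iWAT, 0.564 ± 0.220 in eWAT and 0.316 ± 0.108 in BAT, and was higher in iWAT than in eWAT (log2 fold change 0.69 ± 0.24 SE, adjusted p = 0.019) and than in BAT (log2 fold change 0.92 ± 0.21 SE, adjusted p = 0.00083). Esr2 and the progesterone receptor gene Pgr had at most 3 reads in every sample. Of 8 genes listed as glucocorticoid receptor targets, 6 were higher in iWAT than in BAT and 7 higher in eWAT than in BAT, with 1 lower in each. The exception was Klf9 in both, which in iWAT against BAT changed sign without TMM scaling. Large differences were those of Mt2, a metallothionein (log2 fold change 3.77 ± 0.25 SE, adjusted p = 2.1e-09 in iWAT against BAT), and Fkbp5, a chaperone that restrains the receptor (log2 fold change 2.26 ± 0.21 SE, adjusted p = 1.1e-07). Between the white depots 2 of the 8 were higher in iWAT and 6 were not called. Hsd11b1, which turns inactive into active glucocorticoid, was higher in iWAT than in eWAT (log2 fold change 1.94 ± 0.27 SE, adjusted p = 4.3e-05). With TMM scaling it was lower in iWAT and eWAT than in BAT (-1.02 and -2.94 log2 units), and without it the values were -0.15 and -2.01.

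The estrogen-related receptors, orphan factors for mitochondrial genes, were all highest in BAT. Esrra (chr19:6985467-6996298, mm9, minus strand) was at 3.65, 4.15 and 4.44 RPKM in iWAT, 3.20, 3.85 and 4.26 in eWAT and 11.8, 14.3 and 19.3 in BAT. The white depots overlapped and every BAT sample was above them. Esrra counts were higher in BAT than in iWAT (log2 fold change -2.46 ± 0.10 SE, adjusted p = 1e-11) and than in eWAT (log2 fold change -2.55 ± 0.11 SE, adjusted p = 7e-12), and between the white depots the difference did not pass the threshold (log2 fold change 0.11 ± 0.08 SE, adjusted p = 0.23). Esrrg (chr1:189432670-190038764, mm9, plus strand), the form with the more tissue-restricted distribution, was at 0.411, 0.555 and 0.860 RPKM in iWAT, 0.125, 0.273 and 0.457 in eWAT and 2.28, 2.604 and 3.29 in BAT. The BAT samples were above all white samples, while the white depots overlapped. Its count was higher in BAT than in iWAT (log2 fold change -2.76 ± 0.16 SE, adjusted p = 4.8e-10) and than in eWAT (log2 fold change -3.83 ± 0.25 SE, adjusted p = 1.1e-09), and higher in iWAT than in eWAT (log2 fold change 1.09 ± 0.29 SE, adjusted p = 0.0048).

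Esrrb was nearly absent from white adipocytes. It had 427 reads over the 6 BAT libraries, 14 over the iWAT libraries and 3 over the eWAT libraries, a ratio after TMM scaling of 278 in BAT over eWAT (exact 95% interval 94.6 to 1356, for counting error only) and 52.6 over iWAT (31.0 to 97.1). In BAT it was still the least of the group, with 2.15% ± 0.612 of the ERR sum. All 8 genes listed as ERR targets were higher in BAT than in iWAT and than in eWAT. The list holds Ucp1, the uncoupling protein that defines brown fat, at 1858 ± 237 RPKM in BAT, 2.26 ± 0.591 in iWAT and 0.261 ± 0.0844 in eWAT. Between the white depots 7 of the 8 were higher in iWAT and 1 was not called. Ppargc1a and Ppargc1b, the coactivators that ERRs and PPARs work with, were 6.62 ± 1.27 and 13.7 ± 2.84 RPKM in BAT and below 1 RPKM on average in both white depots. The 5 skeletal muscle markers, a tissue that also carries ERRs, were all higher in BAT as well, with a summed level of 1.20 RPKM in BAT sample 2 and 12.5 to 87.5 in the others, and in BAT sample 2 Esrrg was 3.09 RPKM and Ppara 58.6 RPKM, beside 2.28 to 3.29 and 34.3 to 45.2 RPKM in the other BAT samples. The part of muscle in these values was not tested.

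The clock receptors repress (REV-ERBs) or activate (RORs) genes through shared DNA elements. Nr1d1 (chr11:98629246-98636691, mm9, minus strand), which encodes REV-ERBα, was at 37.2, 40.9 and 53.9 RPKM in iWAT, 14.1, 21.1 and 31.5 in eWAT and 21.7, 30.2 and 32.6 in BAT. The iWAT samples were above all eWAT and BAT samples in RPKM. The Nr1d1 count was higher in iWAT than in eWAT (log2 fold change 1.02 ± 0.18 SE, adjusted p = 0.00029) and higher in BAT than in eWAT (log2 fold change -1.03 ± 0.18 SE, adjusted p = 8.3e-05), while iWAT and BAT differed by -0.03 with TMM scaling (adjusted p = 0.84) and by 0.83 without it. Without scaling the difference between eWAT and BAT was -0.10 (adjusted p = 0.57). Rora was higher in iWAT than in eWAT (log2 fold change 0.93 ± 0.14 SE, adjusted p = 5.7e-05) and higher in both than in BAT (1.67 and 0.76 log2 units; adjusted p = 1.5e-10 and 2e-05), with means of 6.83 ± 0.827, 3.61 ± 0.738 and 1.41 ± 0.103 RPKM. Rorb, known from retina and brain, reached 8 reads at most in an iWAT library, 6 in an eWAT library and a mean of 0.0942 RPKM in BAT.

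Nr1d2, which encodes REV-ERBβ, had nearly equal means in the 3 tissues (11.8 ± 2.78, 11.5 ± 1.35 and 12.0 ± 4.16 RPKM) and did not differ between the white depots beyond its error (log2 fold change 0.04 ± 0.12 SE, adjusted p = 0.81). Its BAT samples fell apart, with samples 5 and 2 at 17.7 and 16.2 RPKM and the others between 7.38 and 12.5. The BAT samples 2 and 5 also stood apart in other clock genes. Dbp, an output gene of the clock, was at 15.0 RPKM in BAT sample 2 and 17.5 in sample 5 against 1.93 to 5.05 in the others, Arntl, which encodes the activator BMAL1, was at 0.435 and 0.191 against 1.02 to 1.70, and Per1 at 2.04 and 1.602 against 4.98 to 8.02. The labels give no time of day. With these samples Nr1d2 was lower in iWAT than in BAT (log2 fold change -0.65 ± 0.20 SE, adjusted p = 0.0072), and without BAT samples 2 and 5 the difference was -0.35 (adjusted p = 0.066). In eWAT against BAT it was -0.66 (adjusted p = 0.0042) with them and -0.37 (adjusted p = 0.022) without them, and in both comparisons it changed sign without TMM scaling (0.22 and 0.26). Of the 13 other clock genes listed, 9 were higher in iWAT than in eWAT and 2 lower, Npas2 and Arntl.

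**Figure D4:**
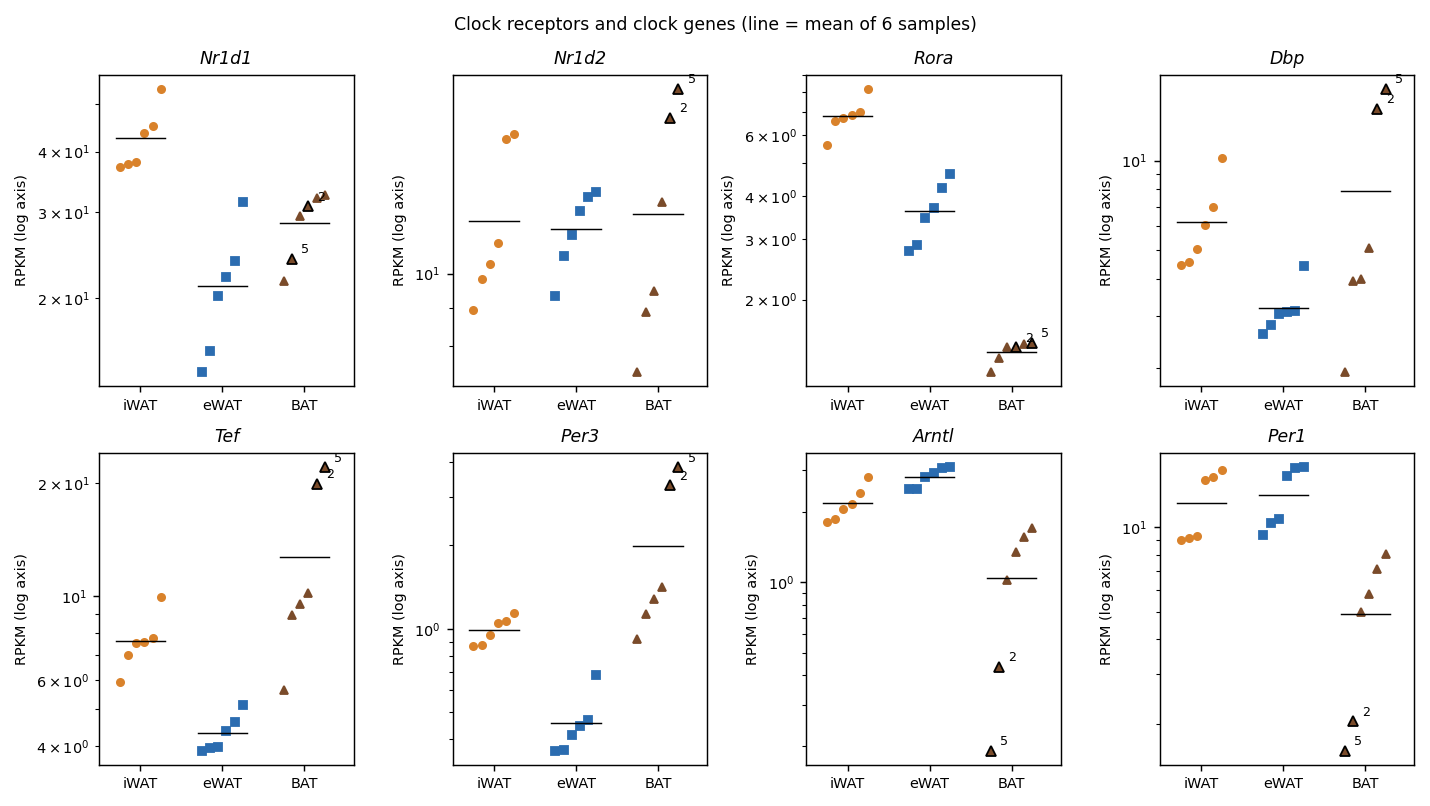
RPKM of 3 clock receptors and 5 clock genes in each sample, on log axes; points are sorted by value within a tissue, lines are means, and BAT samples 2 and 5 are numbered. BAT samples 2 and 5 are the 2 highest BAT samples for Nr1d2 and Dbp and the 2 lowest for Arntl, and Nr1d1 does not separate them from the other BAT samples.

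The oxysterol receptors (LXRs) were abundant everywhere. Nr1h3 (chr2:91024218-91035273, mm9, minus strand), which encodes LXRα, was at 23.2, 28.4 and 30.9 RPKM in iWAT, 17.9, 21.1 and 22.02 in eWAT and 12.4, 15.7 and 19.6 in BAT. The iWAT samples were above all others in RPKM, and eWAT and BAT overlapped. After TMM scaling the iWAT samples overlapped those of eWAT and of BAT, while eWAT and BAT did not overlap. Its transcript was higher in iWAT than in eWAT (log2 fold change 0.43 ± 0.09 SE, adjusted p = 0.0006). The differences from BAT were small with TMM scaling (0.21 in iWAT and -0.20 in eWAT; adjusted p = 0.044 and 0.027), were lost in 10 and 4 of 12 cases when 1 library was left out, and were 1.06 and 0.71 without scaling. Nr1h2, which encodes LXRβ, had means of 12.2 ± 1.09, 13.5 ± 1.20 and 9.95 ± 1.67 RPKM in iWAT, eWAT and BAT and its difference between the white depots did not pass the threshold (log2 fold change -0.14 ± 0.06 SE, adjusted p = 0.069), although it did without TMM scaling (-0.22, adjusted p = 0.029) and without iWAT sample 5 (-0.17, adjusted p = 0.036) or eWAT sample 5. With TMM scaling Nr1h2 was lower in iWAT than in BAT (log2 fold change -0.31 ± 0.08 SE, adjusted p = 0.0022), and higher without it (0.54). In eWAT against BAT the Nr1h2 difference was -0.14 (adjusted p = 0.14) with scaling and 0.76 without it. Nr1h4, the bile acid receptor FXR, had at most 3 reads in any white sample and 3 to 14 in BAT.

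Of 8 genes listed as LXR targets, 5 were higher in iWAT than in BAT and 1 lower (Scd1, which changed sign without TMM scaling), and 5 were higher in eWAT than in BAT and 2 lower. The 2 lower in eWAT were Scd1 and Srebf1, and Srebf1 was at -0.91 log2 units with TMM scaling and -0.0 without it. Abcg1, a cholesterol exporter that is prominent in macrophages, was at 11.4 ± 1.20 RPKM in iWAT, 25.6 ± 3.72 in eWAT and 1.19 ± 0.193 in BAT, in the order of the summed macrophage markers. Pltp, the phospholipid transfer protein, followed the same order (log2 fold change -0.76 ± 0.09 SE, adjusted p = 7.3e-06 in iWAT against eWAT). The part of macrophages in the levels of Abcg1 and Pltp was not tested. Scd1, the stearoyl-CoA desaturase, was higher in iWAT than in eWAT (log2 fold change 1.51 ± 0.35 SE, adjusted p = 0.0019).

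Vdr, the vitamin D receptor, was low in all 3 tissues, with means of 0.290 ± 0.0729 RPKM in iWAT, 0.335 ± 0.0863 in eWAT and 0.298 ± 0.118 in BAT, and it overlapped between all tissues. Its difference between iWAT and BAT (log2 fold change -0.65 ± 0.25 SE, adjusted p = 0.028) was lost in 5 of 12 cases when 1 library was left out and changed sign without TMM scaling (0.21). Nr1i3, the xenobiotic receptor CAR, was listed at 4.02 ± 0.268, 3.99 ± 0.313 and 8.14 ± 0.946 RPKM, but 2268 of its 4414 exon bases overlap Tomm40l, a mitochondrial gene on the opposite strand, and the sources do not state that counting used the strand, so its reads and those of Tomm40l cannot be told apart. The classical targets Cyp24a1 and Cyp3a11 had no read in any of the 18 libraries. Nr1i2, the pregnane X receptor, had at most 1 read in a library.

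The NR4A receptors, immediate-early orphan factors, were the only receptors called higher in eWAT than in iWAT and were low in BAT. Nr4a1 (chr15:101097277-101105226, mm9, plus strand), which encodes NUR77, was at 39.8, 50.5 and 99.0 RPKM in iWAT, 72.9, 83.4 and 93.4 in eWAT and 0.925, 6.26 and 26.1 in BAT. In RPKM most iWAT samples were below the eWAT samples, but iWAT sample 5 was the highest of all. Every BAT sample was below every white sample in RPKM, whereas iWAT and BAT overlapped after TMM scaling. The Nr4a1 count was lower in iWAT than in eWAT (log2 fold change -0.55 ± 0.18 SE, adjusted p = 0.015), and higher than in BAT in iWAT (log2 fold change 2.12 ± 0.54 SE, adjusted p = 0.0021) and in eWAT (log2 fold change 2.71 ± 0.53 SE, adjusted p = 0.00024). The white difference was -0.62 (adjusted p = 0.022) within lane 1 and -0.39 (adjusted p = 0.35) within lane 2, and without iWAT sample 5 it was -0.76. Without BAT sample 1, the highest of its group, the differences from BAT were 2.85 and 3.42. The lowest BAT values were 0.925 and 2.44 RPKM in samples 5 and 2.

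Nr4a3 (chr4:48058025-48099319, mm9, plus strand), which encodes NOR1, was at 2.19, 2.63 and 7.89 RPKM in iWAT, 6.05, 8.31 and 10.2 in eWAT and 0.144, 0.392 and 1.62 in BAT. As for Nr4a1, iWAT sample 5 reached the eWAT range and the other iWAT samples lay below it. The difference was -1.23 ± 0.28 log2 units between iWAT and eWAT (adjusted p = 0.0016), with -1.54 within lane 1 and -0.76, not called, within lane 2. It was higher than in BAT in iWAT (log2 fold change 2.02 ± 0.45 SE, adjusted p = 0.00072) and in eWAT (log2 fold change 3.28 ± 0.39 SE, adjusted p = 1.3e-06). Nr4a2, which encodes NURR1, was the lowest of the 3 in eWAT, with means of 2.63 ± 0.909, 3.73 ± 0.295 and 1.125 ± 0.290 RPKM in iWAT, eWAT and BAT (log2 fold change -0.50 ± 0.16 SE, adjusted p = 0.011 between the white depots). Its difference between iWAT and BAT (log2 fold change 0.61 ± 0.19 SE, adjusted p = 0.0087) was 0.47 (adjusted p = 0.063) without BAT samples 2 and 5.

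The NR4A genes did not stand alone. All 12 other immediate-early genes listed, Fos, Egr1 and Jun among them, were higher in both white depots than in BAT, with summed levels of 1962 to 3388 RPKM in iWAT, 1591 to 2143 in eWAT and 54.2 to 167 in BAT. Unlike the NR4A genes, 6 of the 12 were higher in iWAT than in eWAT and 2 lower (Egr2 and Dusp1). iWAT sample 5 had the highest sum of its group and BAT sample 1 the highest of its own. Since white adipocytes went through a warm digestion and BAT was frozen, these levels and the preparation cannot be told apart.

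**Figure D5:**
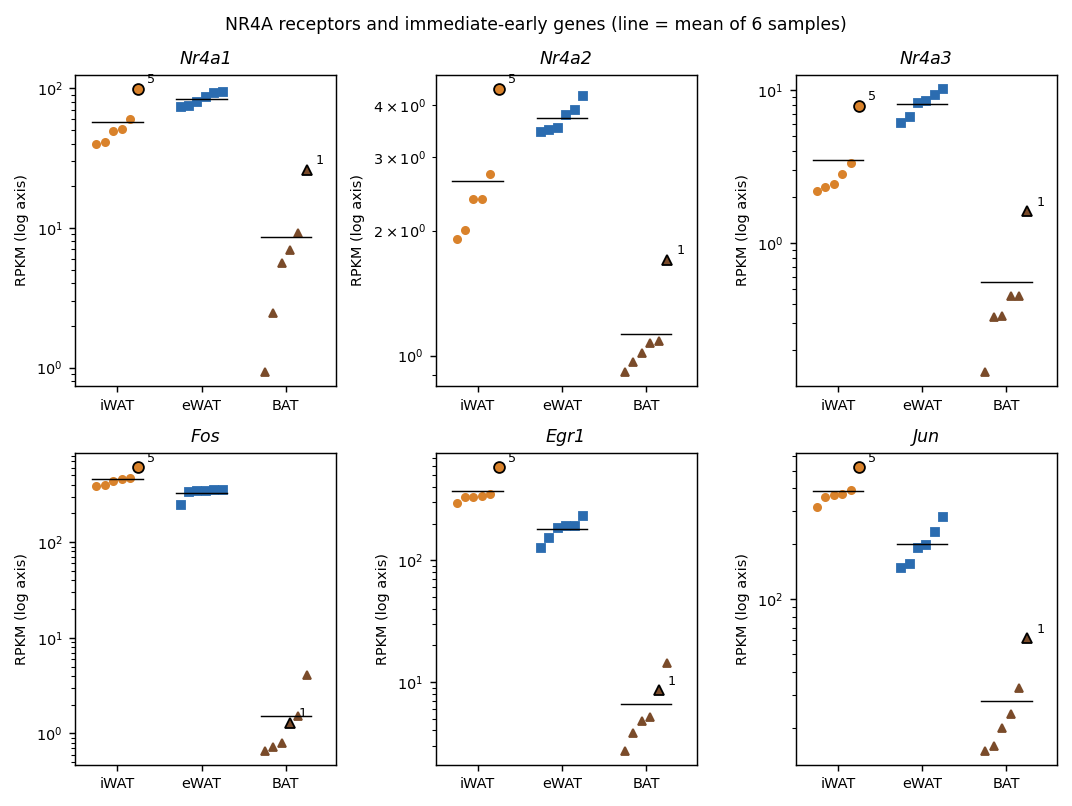
RPKM of the NR4A receptors and of Fos, Egr1 and Jun in each sample, on log axes; points are sorted by value within a tissue, lines are means, and iWAT sample 5 and BAT sample 1 are numbered. iWAT sample 5 is the highest of its group in all 6 panels, BAT sample 1 is the highest of its group in 4 of them, and all BAT samples lie below the white samples.

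Across samples of one tissue, Nr4a1 was set against the mean of the immediate-early genes and Nr1d1 against that of Dbp, Tef, Hlf and Per3. Vdr, Nr1h3 and Pparg were set against the mean of the macrophage markers. Values were taken as log2(RPKM + 0.1). The 12 relations, with 6 samples each, had exact two-sided permutation tests that cannot give a p under 0.00278. Nr4a1 went with the immediate-early mean in iWAT (r = 0.986, exact permutation p = 0.00278, adjusted 0.0167; rho = 0.943, p = 0.0167, adjusted 0.0667). Without the 2 samples farthest from the median sum r was 0.961. In eWAT r was 0.864 (exact permutation adjusted p = 0.0583) and in BAT 0.835 (adjusted p = 0.0733). Vdr went with the macrophage mean in iWAT (r = 0.934, exact permutation p = 0.00556, adjusted 0.0222; rho = 1.0, p = 0.00278, adjusted 0.0333), with r = 0.856 without the 2 farthest samples, and in eWAT r was -0.133. Pparg was lowest in eWAT samples 3 and 1, at 28.5 and 35.4 RPKM, the samples with macrophage sums of 4205 and 4261 RPKM, whereas the other 4 had 42.7 to 48.2 RPKM of Pparg and macrophage sums of 2656 to 2930. The summed adipocyte markers were also lowest there, at 623 and 836 RPKM against 1519 to 2062. In eWAT the pooled exact permutation test of Pparg against the macrophage mean passed the threshold for r (adjusted p = 0.0167) and not for rho (adjusted p = 0.0667). These samples form separate clusters of under 6 samples, so no pooled r is given, and the relation was not tested within them. The lanes hold too few samples of a tissue to repeat these relations, and the remaining relations did not pass the threshold.

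Because the NR4A genes stood together in every comparison, the 250 bases before their start sites are shown, chosen after their values were seen. The letters TGACG, the half-site of the cAMP response element, are in capitals where they occur on either strand (CGTCA on the strand shown is TGACG on the other). The sequences are RefSeq's for GRCm38.p6, each read 5′ to 3′ along its gene, and their coordinates belong to that build and not to mm9. Nr4a1 lies at chr15:101266596-101266845 on the plus strand, Nr4a2 at chr2:57124004-57124253 on the minus strand and Nr4a3 at chr4:48045055-48045304 on the plus strand.
Nr4a1: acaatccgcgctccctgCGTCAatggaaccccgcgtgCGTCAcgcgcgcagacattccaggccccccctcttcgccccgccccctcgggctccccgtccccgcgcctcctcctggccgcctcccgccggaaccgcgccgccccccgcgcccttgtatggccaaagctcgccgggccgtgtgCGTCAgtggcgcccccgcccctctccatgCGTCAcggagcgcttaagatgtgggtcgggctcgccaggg
Nr4a2: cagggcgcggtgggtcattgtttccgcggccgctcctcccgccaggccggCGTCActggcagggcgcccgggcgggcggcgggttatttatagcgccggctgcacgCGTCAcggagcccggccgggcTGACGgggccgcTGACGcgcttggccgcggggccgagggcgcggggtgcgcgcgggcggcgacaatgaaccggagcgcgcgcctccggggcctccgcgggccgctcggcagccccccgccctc
Nr4a3: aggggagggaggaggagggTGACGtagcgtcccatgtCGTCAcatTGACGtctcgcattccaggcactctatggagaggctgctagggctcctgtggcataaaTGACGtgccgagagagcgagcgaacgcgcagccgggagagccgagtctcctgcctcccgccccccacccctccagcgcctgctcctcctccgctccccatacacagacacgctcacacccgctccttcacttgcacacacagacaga
Each of these windows holds 4 half-sites. Counted from the start site, with bases before it negative, their first bases are at -233, -213, -69 and -40 in Nr4a1, at -200, -144, -123 and -111 in Nr4a2 and at -231, -213, -205 and -147 in Nr4a3. Counted over windows of 300 bases (250 before and 50 after the start), at least 1 half-site was found in 20.8% of all 32851 RefSeq windows and at least 4 in 0.231%. The 42 receptors with an entry have 63 such windows, of which 17 held at least 1, and the 3 windows with at least 4 were those of the NR4A genes. The full palindrome TGACGTCA was in 1.79% of all windows and, among the receptors, in those of Nr2e1 and Nr6a1. The cut of 4 is the number held by the NR4A windows themselves, so these shares are descriptive and are not a test of the NR4A genes. The full set of windows was not matched for base composition. The letters AGGTCA and CACGTG were also counted, and 0 of the 63 receptor windows held at least 4 of either. A match describes the letters only, and binding was not measured.

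The COUP-TF group and the remaining orphan receptors followed the depots in part. Nr2f2 (chr7:77496832-77511632, mm9, minus strand), which encodes COUP-TFII and marks venous endothelium as well as some adipocyte progenitors, was at 1.39, 1.97 and 2.85 RPKM in iWAT, 0.623, 0.711 and 1.14 in eWAT and 1.04, 1.30 and 1.56 in BAT. The iWAT samples were above all eWAT samples and overlapped BAT. Nr2f2 was higher in iWAT than in eWAT (log2 fold change 1.43 ± 0.19 SE, adjusted p = 2.4e-05) and higher in BAT than in eWAT (log2 fold change -1.37 ± 0.13 SE, adjusted p = 1.5e-07), and iWAT and BAT did not differ beyond the error with TMM scaling (log2 fold change 0.03 ± 0.14 SE, adjusted p = 0.82), against 0.90 (adjusted p = 0.00012) without it. Nr2f1 had its highest iWAT values, 0.660 and 0.498 RPKM, in samples 5 and 1, which also had the highest Nr2f2 (2.85 and 2.66 RPKM) and the highest endothelial sums (529 and 417 RPKM against 187 to 329 in the others). Its difference between the white depots (log2 fold change 0.85 ± 0.30 SE, adjusted p = 0.022) had an adjusted p of 0.054 without iWAT sample 5.

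Nr2f6 had means of 5.58 ± 0.666, 4.20 ± 0.204 and 10.6 ± 2.33 RPKM in iWAT, eWAT and BAT and was called higher in BAT than in both (-1.52 and -1.91 log2 units; adjusted p = 6e-09 and 1.5e-10), but 1622 of its 2983 exon bases overlap Ocel1 on the opposite strand. Nr5a2, an orphan receptor known from liver and pancreas, was highest in iWAT, with means of 0.709 ± 0.275 RPKM there, 0.184 ± 0.0562 in eWAT and 0.207 ± 0.0386 in BAT (log2 fold change 1.96 ± 0.27 SE, adjusted p = 4e-05 between the white depots). Nr6a1, known from germ cells, was higher in BAT than in iWAT (log2 fold change -1.76 ± 0.13 SE, adjusted p = 8.2e-09) and than in eWAT (-1.56, adjusted p = 1.7e-08), with means under 0.5 RPKM in all 3 tissues. The testicular receptors Nr2c1 and Nr2c2 had means of 1.39 to 1.504 and 1.82 to 2.47 RPKM. Nr2c1 was higher in BAT than in iWAT (log2 fold change -0.55 ± 0.09 SE, adjusted p = 4.4e-05) and in eWAT (log2 fold change -0.47 ± 0.09 SE, adjusted p = 0.00019) with TMM scaling and lower without it (0.30 and 0.43). Nr2c2 was higher in iWAT than in eWAT (log2 fold change 0.19 ± 0.06 SE, adjusted p = 0.0098; 0.11 and not called without scaling) and higher in BAT than in eWAT with TMM scaling (log2 fold change -0.33 ± 0.08 SE, adjusted p = 0.0018; 0.58 without it), and 3533 of the 9152 exon bases of Nr2c2 overlap Mrps25 on the opposite strand.

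A set of 7 receptors had at most 3 reads in each of the 18 libraries (Esr2, Hnf4g, Nr0b2, Nr1i2, Nr2e1, Nr2e3 and Pgr), which is the limit that counting sets here, and no statement on their expression is made beyond it. Nr0b1, the orphan repressor DAX1, had no read in any white library and 0 to 4 in BAT. Hnf4a, a liver and gut receptor, had no read in BAT and at most 4 in a white library. Nr5a1, the steroidogenic factor, had at most 5 reads in a library.

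The cofactors, which receptors recruit or release with ligand, were taken as fixed lists. Of 12 coactivators, 2 were higher in iWAT than in eWAT (Ppargc1a, log2 fold change 1.70 ± 0.24 SE, adjusted p = 4.6e-05, and Prdm16, a brown fat cofactor, log2 fold change 1.83 ± 0.17 SE, adjusted p = 1.4e-06), 4 were higher in eWAT, with Ncoa3 first (log2 fold change -1.04 ± 0.11 SE, adjusted p = 2.9e-06), and 6 were not called. Against BAT, 3 were higher in iWAT and 5 higher in BAT, and 5 and 5 in eWAT, and in both comparisons Med1 and Carm1 changed sign without TMM scaling. Ppargc1b was at 0.862 ± 0.142 RPKM in iWAT and 0.820 ± 0.0983 in eWAT. Of 10 corepressors, 8 were higher in eWAT than in BAT and 2 lower, and 6 were higher in iWAT than in BAT and 2 lower, the lower ones being Hdac3 and Lcor in both cases, which changed sign without TMM scaling. Nrip1, which restrains oxidative genes in adipocytes, was at 9.50 ± 2.03 RPKM in iWAT, 6.38 ± 2.07 in eWAT and 0.926 ± 0.124 in BAT (log2 fold change 2.76 ± 0.14 SE, adjusted p = 6.6e-11 in iWAT against BAT). Over the cofactor, supply and target genes listed, 82 of 96 were called in iWAT against BAT, 39 higher in iWAT and 43 higher in BAT, and 60 and 26 without TMM scaling. In eWAT against BAT 87 of 95 were called, 40 higher in eWAT and 47 higher in BAT, and 53 and 35 without scaling. Over all genes the splits without scaling were 13701 and 3054 of 19745 in iWAT against BAT and 12962 and 4066 of 20076 in eWAT against BAT. With the clock and immediate-early genes added the splits were 55 and 47 in the first comparison and 54 and 54 in the second.

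The spread between replicates was near that of all genes. The median coefficient of variation of the receptors tested was 15.1% in iWAT, 16.7% in eWAT and 17.6% in BAT, beside 13.8%, 14.9% and 17.2% over all genes. The steadiest receptors were Nr2c1 in iWAT (4.22%), Nr2f6 in eWAT (4.87%) and Rora in BAT (7.32%). The most variable were Nr4a3 in iWAT (62.6%), Esrrg in eWAT (46.2%) and Nr4a1 in BAT (107%).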

How the data were processed

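The data were 18 RNA-seq libraries, 6 each from iWAT adipocytes, eWAT adipocytes and BAT of HFD mice, made with a NEBNext Ultra kit. Per the labels' processing notes, the authors used cutadapt 1.16, HISAT2 2.1.0 and mm9; the counting program and its use of strand are not given in the sources used here. The deposited tables hold, for 53445 rows, a read count (a whole number of reads) and an RPKM that the authors computed from it. One label field gives regular chow, whereas the sample titles, the protocol and the series text give HFD, and the samples were taken as HFD. The tables name each gene's mm9 position.

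Where several rows carried one symbol, that of the largest average RPKM stood for it. Counts were tested with edgeR 4.0.16 in R 4.3.3 (TMM scaling, an average of 10 or more reads in the 12 samples compared, quasi-likelihood test, Benjamini-Hochberg adjustment over all genes, threshold 0.05), with SE taken from the log2 fold change and its F statistic. Alternatives were DESeq2 1.42.0, limma 3.58.1 on log2(RPKM + 0.1) and log2(RPKM + 1), no TMM scaling, no count minimum, rows of a symbol summed, all 18 samples in one fit, a lane covariate, a replicate block and each library left out. Correlations used exact permutation in scipy 1.17.1, and promoter letters were searched in RefSeq windows of GRCm38.p6. The scripts were tested on simulated data. The fits that left out a library, kept 1 lane or left out BAT samples 2 and 5 were chosen after seeing the data.

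The 46 members and the other gene lists were chosen with earlier results of these data known. Receptors named with full values were the top 5 by average RPKM in a tissue and the 6 with the largest called change in each comparison among those at 1 RPKM or more. The samples of a tissue are separate libraries, and nothing in the labels says that samples of a tissue came from separate animals. The study's notes give n = 6 per group for the mice but do not name the animal of each sample. The p-values therefore measure the spread between these samples. No pair of libraries was identical. Chow libraries are not analysed here. Some genes of the other lists are not reported here.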

Additional observations from a re-analysis of the deposited data

Results flagged for a closer look

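Each of the following values lay apart from the other 5 of its tissue by more than Dixon's 95% limit, in 10 of 101 groups of 6 samples examined, where chance alone gives about 5 (1 in 20). The NR4A genes supply 6 of the 10. In iWAT sample 5, Nr4a1 was 99.0 RPKM against 39.8 to 60.6 in the others, Nr4a2 was 4.39 against 1.91 to 2.73 and Nr4a3 was 7.89 against 2.19 to 3.34. In BAT sample 1, Nr4a1 was 26.1 RPKM against 0.925 to 9.16, Nr4a2 was 1.70 against 0.912 to 1.09 and Nr4a3 was 1.62 against 0.144 to 0.452. These libraries also had the highest summed immediate-early genes of their tissues, 3388 and 167 RPKM.

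The other 4 values each concern a single receptor. Pparg was 106 RPKM in BAT sample 17 against 79.0 to 88.6 in the others. Nr1h3 was 17.9 RPKM in eWAT sample 1 against 20.6 to 22.02. Vdr was 0.501 RPKM (73 reads) in eWAT sample 5 against 0.261 to 0.343, and Nr2f1 was 0.153 RPKM (20 reads) in BAT sample 5 against 0.268 to 0.319.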

How the results depend on the processing

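The 24, 29 and 30 receptors called (iWAT against eWAT, iWAT against BAT and eWAT against BAT) stayed within 1.5 times of these counts under every alternative run. Leaving out 1 library gave 23 to 25, 25 to 28 and 28 to 30 calls, 8 to 12, 16 to 18 and 21 to 22 calls at 2-fold or more, and 84 to 95, 99 to 103 and 107 to 110 calls in the other lists (cofactor, supply, target, clock and immediate-early genes). With limma on log2(RPKM + 1), which shrinks changes of low genes, the calls at 2-fold or more were 4, 8 and 11. Within lane 1 alone, with fewer samples, 57 of the genes of the other lists were called between the white depots, against 87 with both lanes; the receptors called there were 16 in lane 1 and 18 in lane 2, 13 of them in both.

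Single receptors near 0 against BAT changed sign where TMM scaling was not used; their log2 fold changes follow for no scaling, then limma with 0.1, then limma with 1 added. In iWAT against BAT these were 0.24, 0.02 and 0.01 for Thra, 0.58, 0.31 and 0.25 for Thrb, 0.79, 0.53 and 0.41 for Ppard, 0.31, 0.06 and 0.06 for Pparg, 0.83, 0.58 and 0.57 for Nr1d1, 0.22, 0.01 and 0.01 for Nr1d2, 0.54, 0.31 and 0.28 for Nr1h2, 0.30, 0.07 and 0.04 for Nr2c1, 0.69, 0.43 and 0.30 for Nr2c2, and 0.21 and 0.00 for Vdr under the first 2. In eWAT against BAT they were 0.52, 0.20 and 0.15 for Ppard, 0.76, 0.45 and 0.42 for Nr1h2, 0.71, 0.40 and 0.38 for Nr1h3, 0.43, 0.12 and 0.07 for Nr2c1, 0.58, 0.26 and 0.18 for Nr2c2, 0.83, 0.52 and 0.49 for Nr3c1, and, without scaling only, 0.26 for Nr1d2 and 0.14 for Nr5a2.

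Samples with the same number in their titles were not taken as pairs, since the labels do not say what the number marks and their deviations correlated at -0.223 to 0.339 between the white depots, -0.134 to 0.096 between iWAT and BAT and -0.031 to 0.063 between eWAT and BAT over 19941 genes, with 1 of 6, 1 of 4 and 2 of 4 samples closest to their own number. With the number as a replicate block the receptors called were 22, 21 and 28, and 11, 17 and 23 at 2-fold or more, and the calls not made under the block were those of Nr2f1 and Esr1 in the first comparison, Rarg, Nr1h2, Nr1h3, Vdr, Esr1, Nr3c1, Nr3c2 and Nr4a2 in the second, and Nr1h3 and Rxra in the third.

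Calls lost when 1 library was left out were Rarg between the white depots (eWAT sample 1, 2, 4 or 16, iWAT sample 1 or 5; adjusted p up to 0.073), Nr2f1 there (iWAT sample 5; 0.054), in iWAT against BAT Rarg (BAT sample 5, 16, 17 or 18, iWAT sample 1, 3, 4 or 5; up to 0.096), Nr1h3 (any but BAT sample 2 and iWAT sample 5; up to 0.13), Vdr (BAT sample 1, 16 or 18, iWAT sample 2 or 16; up to 0.091) and Nr3c2 (BAT sample 1, 2, 16, 17 or 18, iWAT sample 4, 5 or 16; up to 0.1), and in eWAT against BAT Nr1h3 (BAT sample 2, eWAT sample 1, 3 or 16; up to 0.08) and Rxra (BAT sample 1, 5, 16, 17 or 18, eWAT sample 2, 4 or 16; up to 0.09). Calls gained were Nr1h2 between the white depots (called without eWAT sample 5 or iWAT sample 5), Thrb in iWAT against BAT (called without iWAT sample 16), Nr2c2 there (called without BAT sample 1, 16 or 17 or iWAT sample 16), and in eWAT against BAT Nr1h2 (called without BAT sample 5) and Vdr (called without BAT sample 2). The cause of these changes was not tested. DESeq2 called 24, 28 and 30. With no count minimum 45, 45 and 46 receptors were tested and 25, 29 and 32 called.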

Other observations

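Some rows share sequence with a receptor. Tomm40l, on the other strand of Nr1i3, was at 3.44 to 4.15 RPKM in iWAT, 3.41 to 4.07 in eWAT and 6.33 to 8.72 in BAT. Ocel1, opposite Nr2f6, was at 2.26 to 2.95, 2.14 to 2.46 and 3.48 to 5.83 RPKM, and Mrps25, opposite Nr2c2, at 4.35 to 5.13, 3.81 to 4.25 and 3.97 to 5.10. A row named for both Thra and Nr1d1 had 12.9 to 15.0 RPKM in iWAT, 4.87 to 8.99 in eWAT and 9.95 to 16.1 in BAT, and a row named for Nr1h3 and Gm13783 had 15.7 to 21.1, 12.5 to 15.4 and 8.68 to 13.6.

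Of 7 steroid supply genes tested, 4 were higher in iWAT than in eWAT and 2 lower, and 3 were higher in iWAT than in BAT and 4 lower. Without TMM scaling Hsd17b4 and Hsd17b12 changed sign in iWAT against BAT, and Hsd11b1 and Hsd17b10 were at -0.15 and -0.06 log2 units. Of 3 vitamin D and xenobiotic target genes tested, 1 was higher in iWAT than in BAT and 2 lower. Among the 10 corepressors 4 were higher in iWAT than in eWAT and 3 lower.

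Summed T cell markers (4 of 5 listed genes found) were at most 0.337 RPKM in any sample and summed B cell markers at most 2.17. Schwann cell markers summed to 5.93 to 19.2 RPKM in iWAT, 5.27 to 6.29 in eWAT and at most 6.49 in BAT. Of the 4 Schwann cell markers tested, 3 were called higher in BAT than in eWAT and 1 lower. Mesothelial markers summed to 1.97 to 2.70 RPKM in iWAT, 2.36 to 4.96 in eWAT and 7.05 to 9.91 in BAT, with no read of Wt1 in BAT. In each tissue 4 of the 5 had a mean under 1 RPKM, so the sums do not stand for each marker. Of 4 tested, 3 were called higher in eWAT than in BAT and 1 lower. Between the white depots 3 of 4 were higher in eWAT and 1 was not called. Progenitor and fibroblast markers summed to 122 to 266 RPKM, 107 to 149 and 54.7 to 76.1, and skeletal muscle markers to 3.92 to 15.9, 1.159 to 4.85 and 1.20 to 87.5.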
